A study of Homo sapiens with 24 samples.

Results

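Control LNCaP cells in this study were split into 2 array sets that crossed the labelled times, and the sets differed most in metallothionein and mitotic transcripts. The first set held 6 arrays, labelled 12 hours replicate 3, 24 hours replicate 1 and 24 hours replicate 3 of Vehicle and of Scrambled cells. The second set held the other 6 control arrays, labelled 12 hours replicate 1, 12 hours replicate 2 and 24 hours replicate 2 of Vehicle and of Scrambled cells. These 12 arrays were among 24, and the remaining arrays held 6 of siOGT and 6 of ST045849 cells with the same times and replicate numbers. LNCaP is an androgen-responsive line from a human prostate cancer metastasis. Vehicle was the control of ST045849, a small molecule used to inhibit O-GlcNAc transferase (OGT), and Scrambled was the control of the OGT siRNA (siOGT). OGT modifies nuclear and cytoplasmic proteins with a single sugar, O-GlcNAc. All cells were grown in RPMI with serum and plated directly onto the siRNA, compound or vehicle, per the labels' protocols, with 3 biological replicates per condition. The sources used here do not give the dose, the slides or which replicates shared a culture, so culture, hybridisation and set cannot be told apart. In each treatment the first set would be the arrays labelled 24 hours, and the second set those labelled 12 hours, if the labels 12 hours replicate 3 and 24 hours replicate 2 were exchanged. An exchange of labels was not tested and cannot be told apart from the set either, so times below are the labelled ones.

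The sets were chosen by measured values of these arrays. On the first principal component of all 24 arrays, which held 34.2% of the variance, the Vehicle arrays lay at -12.9 to -12.4 in the first set and at -3.31 to -2.67 in the second set, with the largest gap between Vehicle arrays from -12.42 to -3.31. That split was carried to Scrambled cells by time and replicate number, where the component ran at -10.8 to -9.34 in the first set and -6.34 to -1.27 in the second set. The widest gap between Scrambled arrays lay within the second set, from -6.34 (12 hours replicate 1) to -2.62 (12 hours replicate 2). Differences between the control sets are therefore given as a description with no test. The tests below use the siOGT and ST045849 arrays, whose set followed from their labels, although the component was computed with these arrays included and all 24 were normalised together. Levels are background-corrected, quantile-normalised log2 intensities of 1 probe per gene, and every difference is the first set minus the second set on that log2 scale.

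Median raw intensity was 102 to 124 on the 6 first-set arrays and 109 to 126 on the 6 second-set arrays, and 13993 to 16246 and 14618 to 15457 probes were detected on them. The small number of arrays limits precision. The 12 luminal prostate markers with a probe, KLK3, KLK2, FOLH1 and HOXB13 among them, were detected on all 12 control arrays, and none of 6 basal markers was detected on any. HOXB13 was lower in the first set without overlap in either treatment (-0.57), the 1 luminal marker of 12 without overlap, and the list's median was -0.02. Among stromal and immune markers 3 of 16 were tested, VIM, ACTA2 and CD68, and their summed linear intensity was 798 to 884 in the first set and 1048 to 1159 in the second set. ACTA2 differed by -0.75 (log2), while VIM differed by -0.04 and CD68 by 0.04. COL1A1, DCN, PTPRC and PECAM1 were not detected on any control array. ENO2 was the 1 neuroendocrine marker of 11 detected, and it differed by -0.40 with overlap between sets. One library stood apart: Scrambled 24 hours replicate 1 lay at 19.6 on the second component of the control arrays, with the other 11 between -11.2 and 5.47. Values without it are given below where they matter.

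A gene was counted as apart when its 3 first-set arrays and its 3 second-set arrays did not overlap in Vehicle and did not overlap, in the same direction, in Scrambled cells. This held for 452 of 10345 genes (4.37%), of which 223 were higher (2.16%) and 229 lower (2.21%) in the first set. Without Scrambled 24 hours replicate 1, 364 were higher and 382 lower, and under this rule leaving out an array can only keep or add genes. At 1.5-fold or more, 32 genes were apart (0.309%), 23 of them higher (0.222%) and 9 lower (0.087%). CDC25C (0.59) and MT1E (-0.64) lay just inside that fold, and ASPM (0.57) and GDF15 (-0.58) just outside it. The 9 lower genes were 6 metallothioneins, HMOX1, S100P and ACTA2. The 23 higher genes held 9 of the G2/M and mitosis list.

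Metallothioneins are small cysteine-rich proteins that bind zinc and copper. Their genes are switched on by metals through the transcription factor MTF1, which binds metal response elements, and they also respond to glucocorticoids and oxidative stress. All 6 metallothioneins tested were lower in the first set of control cells. RefSeq promoters (GRCh38.p14) were available here for MT2A, MT1X and MT1H, which are printed because these genes moved together across the sets. They are the 200 bases before the start of each gene on chromosome 16, + strand, with metal response element cores (TGCACNC or TGCGCNC, both strands) in capitals. MT2A lies at chr16:56608384-56608583, MT1X at chr16:56682270-56682469 and MT1H at chr16:56669614-56669813.
MT2A: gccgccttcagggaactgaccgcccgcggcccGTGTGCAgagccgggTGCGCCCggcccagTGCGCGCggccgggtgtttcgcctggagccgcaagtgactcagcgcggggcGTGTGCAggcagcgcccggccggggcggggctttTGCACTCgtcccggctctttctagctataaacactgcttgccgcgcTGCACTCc
MT1X: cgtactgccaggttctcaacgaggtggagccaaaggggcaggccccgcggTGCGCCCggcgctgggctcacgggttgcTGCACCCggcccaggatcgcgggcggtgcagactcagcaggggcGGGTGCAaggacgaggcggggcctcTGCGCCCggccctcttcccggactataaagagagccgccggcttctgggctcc
MT1H: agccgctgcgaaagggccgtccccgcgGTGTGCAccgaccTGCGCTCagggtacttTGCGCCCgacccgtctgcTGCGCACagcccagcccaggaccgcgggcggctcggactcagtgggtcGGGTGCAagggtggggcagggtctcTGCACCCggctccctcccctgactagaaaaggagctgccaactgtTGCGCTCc
Within 250 bases before the start, 3 of these 3 promoters held 2 or more cores, with a median of 7. Among 8425 promoters of genes tested, 33.5% held at least 1 core and 9.86% held 2 or more. Among all 27305 promoters, 24.7% held at least 1 core and 6.51% held 2 or more. A match in letters is a description of the sequence and shows no binding.

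MT1F had levels of 7.74, 7.65 and 7.58 in first-set Vehicle cells, against 8.93, 9.47 and 8.92 in second-set Vehicle cells. In Scrambled cells MT1F stood at 8.14, 7.67 and 7.77 in the first set, against 8.74, 9.84 and 9.0 in the second set. No first-set array reached a second-set array, and the difference was -1.39, or 2.63-fold. MT2A, the most widely expressed family member, had 10.34, 10.36 and 10.22 in first-set Vehicle cells, against 11.36, 11.98 and 11.83 in second-set Vehicle cells. In Scrambled cells MT2A had 10.49, 10.23 and 10.62 in the first set, against 11.29, 12.01 and 11.74 in the second set, a difference of -1.33 over both treatments. The remaining members differed by -1.13 (MT1X), -0.93 (MT1H), -0.72 (MT1G) and -0.64 (MT1E). These genes are near-identical in sequence, so their probes may share signal and are not 6 independent measurements.

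Genes that handle zinc without being metallothioneins did not stand apart. SLC30A1, a zinc exporter that is also an MTF1 target, differed by -0.0047, SLC39A10 and SLC39A6, zinc importers, by -0.07 and -0.10, and MTF1 itself by -0.12. With median scaling in place of quantile normalisation, 3 of the 6 metallothioneins were apart, all 6 still had lower means in the first set, and the median of the 10 tested of 13 genes of the metallothionein and zinc list was -0.70, against -0.68. Under that scaling 120 of all 10345 genes were apart and lower, against 229 in the main setting.

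HMOX1, which encodes the inducible heme oxygenase, had 5.67, 6.32 and 6.03 in first-set Vehicle cells, against 6.69, 6.96 and 6.94 in second-set Vehicle cells. In Scrambled cells HMOX1 had 6.49, 6.17 and 6.35 in the first set, against 7.13, 7.10 and 7.09 in the second set, and the difference was -0.81. HMOX1 is a target of the antioxidant factor NRF2. Of 19 NRF2 genes tested, HMOX1 and SQSTM1 (-0.38), the autophagy receptor p62, were apart and lower (10.5%, against 2.21% of all genes). Negative differences were seen for 16, and the list's median was -0.23, against -0.01 over all genes. TXNRD1 (-0.37), SLC7A11 (-0.29), GCLM (-0.27) and NQO1 (-0.23) overlapped between sets.

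S100P, a calcium-binding protein, had 8.82, 9.12 and 8.87 in first-set Vehicle cells, against 10.10, 9.71 and 9.56 in second-set Vehicle cells. The first-set Scrambled arrays had 9.02, 9.45 and 9.14, against 10.01, 9.91 and 9.73 on the second-set Scrambled arrays. ACTA2, smooth muscle actin, differed by -0.75, and ACTG2, a near-identical actin whose probe may share signal with it, by -0.54. ACTG2 was dim, detected on 1 of 6 first-set and 5 of 6 second-set arrays. Of 18 p53 targets, 4 were apart and lower (22.2%, against 2.21% of all genes): GDF15 (-0.58), CDKN1A (-0.56), TP53INP1 (-0.35) and SESN1 (-0.34). CDKN1A encodes the cyclin-dependent kinase inhibitor p21, and its levels were 11.42, 11.57 and 11.42 in first-set Vehicle cells, against 12.26, 12.18 and 11.99 in second-set Vehicle cells. MDM2 (0.10) and BAX (0.02), other p53 targets, overlapped between sets, and the list's median was -0.09.

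**Figure D1:**
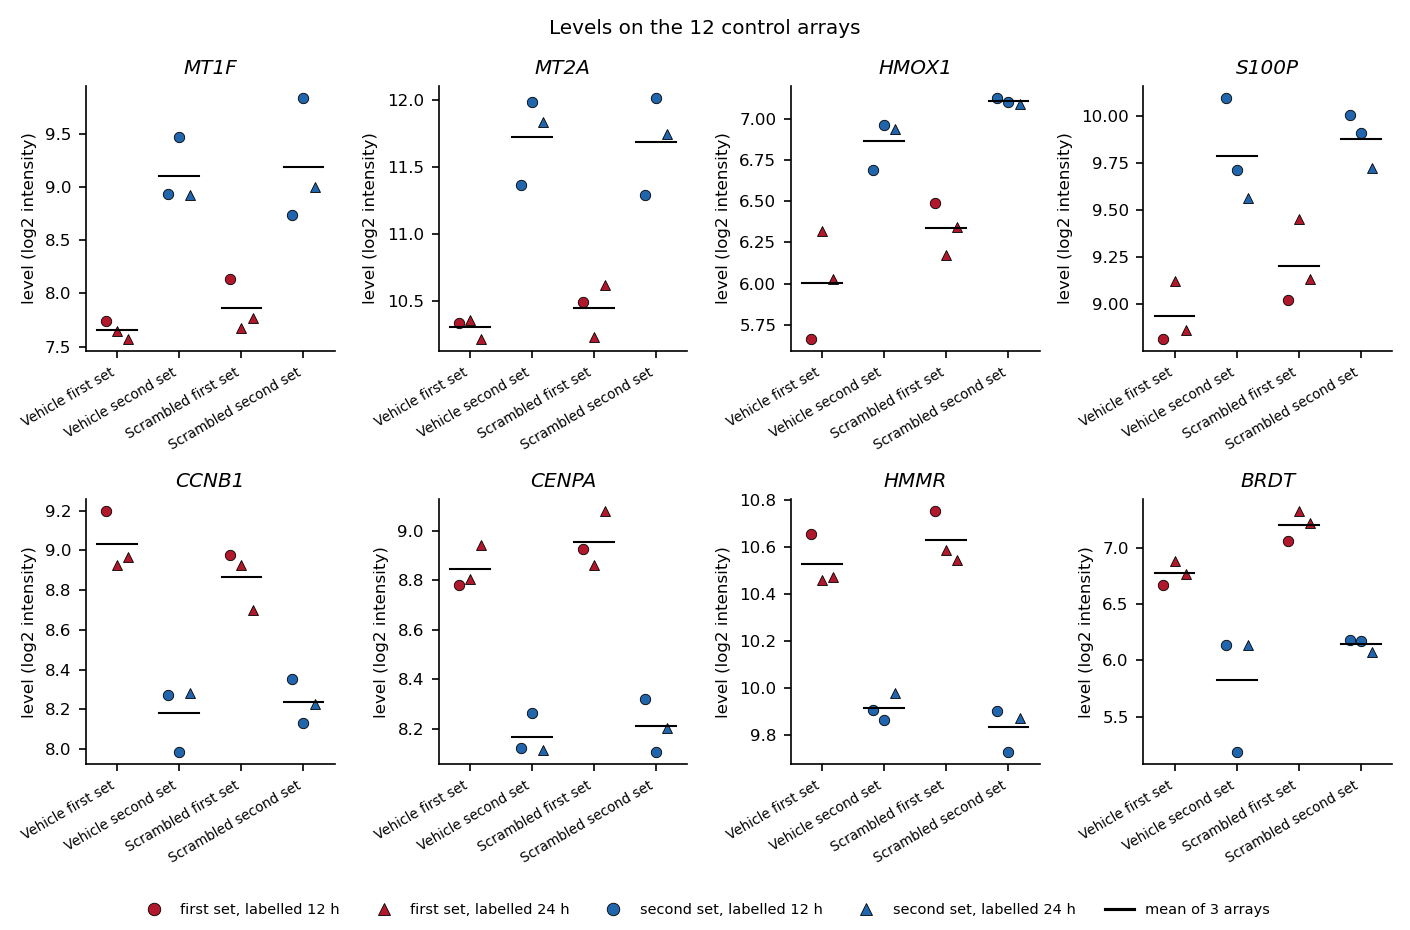
Levels (y axis, log2 intensity) of 4 genes lower and 4 genes higher in the first set, on the 12 control arrays; points are single arrays, circles labelled 12 hours and triangles 24 hours, and bars are means of 3 arrays. Within each treatment, first-set arrays at both labelled times lie on one side of the second-set arrays in every panel, as for MT1F at 7.58 to 7.74 in first-set and 8.92 to 9.47 in second-set Vehicle cells.

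Mitotic transcripts showed the opposite direction. These genes encode cyclin B, the kinases and kinesins of the spindle and the proteins of the kinetochore, and their mRNAs build up in G2 and M phase, so that their level in a population tracks the share of dividing cells. In RNA from whole cultures, fewer cells of a type and less RNA per cell cannot be told apart. Of the 47 genes of the G2/M and mitosis list, 46 passed the detection filter. All 46 had higher means in the first set, and 31 of 46 were apart (67.4%, against 2.16% of all genes apart and higher). The list's differences ran from 0.17 (MAD2L1) to 0.74 (CCNB1) with a median of 0.47. The mean level over the 46 genes was 9.27 to 9.30 in first-set Vehicle cells, against 8.72 to 8.86 in second-set Vehicle cells. It was 9.17 to 9.29 in first-set Scrambled cells, against 8.71 to 8.87 in second-set Scrambled cells.

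CCNB1, the cyclin that drives entry into mitosis, had 9.2, 8.93 and 8.97 in first-set Vehicle cells, against 8.27, 7.99 and 8.28 in second-set Vehicle cells. In Scrambled cells CCNB1 had 8.98, 8.93 and 8.70 in the first set, against 8.36, 8.13 and 8.22 in the second set. CENPA, the histone variant that marks centromeres, differed by 0.71, and a second CENPA probe by 0.78. HMMR, a spindle-associated hyaluronan receptor, had 10.65, 10.46 and 10.47 in first-set Vehicle cells, against 9.90, 9.86 and 9.98 in second-set Vehicle cells, and differed by 0.70 over both treatments. CENPF (0.69), a kinetochore protein, and the mitotic kinesins KIF23 (0.65) and KIF20A (0.65) were apart as well, as was ESPL1 (0.77), which encodes the separase protease and was detected on 4 of 6 second-set arrays. PLK1, a mitotic kinase (0.56), and MKI67, the proliferation marker Ki-67 (0.37), overlapped between sets.

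The DNA replication genes differed less. Of 43 G1/S genes, 4 were apart and higher (9.30%, against 2.16% of all genes) and 1 apart and lower (2.33%, against 2.21%). Positive differences were seen for 35, and the median was 0.15, with RRM2, the small subunit of ribonucleotide reductase, at 0.40. With median scaling, 4 of the 46 mitotic genes and no G1/S gene were apart. Under that scaling 19 of all 10345 genes were apart and higher, against 223 in the main setting. All 46 mitotic genes kept higher means in the first set, with a median of 0.47. Without Scrambled 24 hours replicate 1, 37 of the 46 mitotic genes and 6 metallothioneins were apart, counts that leaving out an array cannot lower.

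Promoters of mitotic genes often hold a CCAAT box and, near the start, a cell cycle homology region (CHR), the site through which the DREAM complex and MuvB act. Of the 46 mitotic genes, 40 had a RefSeq promoter here, and 23 of the 40 (57.5%) held TTTGAA or TTCGAA on either strand within 250 bases before the start. The same letters occurred in 9.85% of 8425 promoters of genes tested and in 14.6% of all 27305 promoters. CCAAT on either strand occurred in 75% of the 40, against 36.8% of the 8425. Of 7 mitotic promoters looked at base by base, those of CENPA, HMMR, KIF23 and PLK1 held TTTGAA or TTCGAA within 200 bases. They are printed to show where it lies, with its letters in capitals. Those of CCNB1, KIF20A and CENPF held neither spelling in that window, and other spellings of a CHR were not searched. All 4 are on the + strand of GRCh38.p14, CENPA at chr2:26785856-26786055, HMMR at chr5:163460432-163460631, KIF23 at chr15:69414149-69414348 and PLK1 at chr16:23678689-23678888.
CENPA: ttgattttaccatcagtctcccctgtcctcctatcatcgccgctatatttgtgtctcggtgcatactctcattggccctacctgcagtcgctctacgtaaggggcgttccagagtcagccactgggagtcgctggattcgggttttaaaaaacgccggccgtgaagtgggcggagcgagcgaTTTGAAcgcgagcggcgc
HMMR: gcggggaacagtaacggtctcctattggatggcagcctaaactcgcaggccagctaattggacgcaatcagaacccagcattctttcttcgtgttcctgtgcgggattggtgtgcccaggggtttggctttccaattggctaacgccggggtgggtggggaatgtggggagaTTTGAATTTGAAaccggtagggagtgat
KIF23: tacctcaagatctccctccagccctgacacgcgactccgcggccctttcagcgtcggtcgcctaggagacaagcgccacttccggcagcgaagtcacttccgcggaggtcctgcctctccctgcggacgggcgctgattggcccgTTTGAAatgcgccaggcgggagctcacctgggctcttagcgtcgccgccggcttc
PLK1: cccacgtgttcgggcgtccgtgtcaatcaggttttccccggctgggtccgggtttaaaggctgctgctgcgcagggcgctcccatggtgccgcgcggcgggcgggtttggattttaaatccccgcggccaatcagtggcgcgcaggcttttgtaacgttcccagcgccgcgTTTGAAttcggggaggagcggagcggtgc

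Outside these groups, BRDT, a bromodomain protein of male germ cells, showed the largest positive difference among genes that were apart, 1.0. Its levels were 6.67, 6.88 and 6.76 in first-set Vehicle cells, against 6.14, 5.19 and 6.14 in second-set Vehicle cells, and it was detected on 5 of 6 second-set arrays. AMY1A, a salivary amylase gene with near-identical copies that its probe may not separate, differed by 0.76. Of 21 cholesterol genes, 7 were apart and all 7 higher in the first set (33.3%, against 2.16% of all genes), with a list median of 0.21. Among the 7 were ACAT2 (0.44), INSIG1 (0.40), MSMO1 (0.39) and EBP (0.39). INSIG1, a sterol-regulated brake on cholesterol synthesis, had 10.37, 10.54 and 10.46 in first-set Vehicle cells, against 10.07, 10.05 and 10.05 in second-set Vehicle cells. With median scaling none of the 21 was apart, where 19 of all 10345 genes were apart and higher, and 18 had positive differences as before.

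UGT2B enzymes inactivate androgens by attaching glucuronic acid. Of 13 genes of UGT2B and steroid metabolism, 3 were apart and higher in the first set (23.1%, against 2.16% of all genes). The list's median was 0.05. With median scaling 1 gene of the list was apart and higher, where 19 of all 10345 genes were. UGT2B15 had 8.59, 8.56 and 8.62 in first-set Vehicle cells, against 7.84, 7.84 and 7.95 in second-set Vehicle cells, and differed by 0.54 over both treatments. UGT2B28 (0.62) and UGT2B17 (0.32) were also apart, while UGT2B10 (0.56) and UGT2B11 (0.47) overlapped. These genes are near-identical, and their probes may share signal. Of 34 androgen-response genes 2 were apart and higher (5.88%, against 2.16% of all genes), and KLK3, which encodes PSA, differed by 0.14. MYC differed by -0.01, and its 12 control values lay between 11.24 and 11.46. None of the 43 MYC target, 37 ATF4, 21 glycolysis, 31 proteasome or 22 interferon genes was apart, and 1 of 66 ribosomal protein genes was, where 4.37% of all genes were.

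Differences by set and by labelled time are given side by side as a description. The sets were chosen by the largest gap between the Vehicle arrays, which enter these differences, so a wider spread by set than by time is built into the choice. Over 10345 genes, the set difference had an SD of 0.20 between arrays labelled 24 hours and 0.19 between arrays labelled 12 hours. The difference between 24 and 12 hours had an SD of 0.15 within the first set and 0.17 within the second set. At least 1.5-fold differences were seen for 102 and 88 genes between sets, at 24 and at 12 hours, and for 22 and 58 genes between times, in the first and in the second set, with unequal numbers of arrays behind each. The median over 6 metallothioneins was -1.03 between sets at 24 hours and -0.94 at 12 hours, against -0.20 and -0.19 between times in the first and the second set. For the mitotic genes these medians were 0.50 and 0.52 between sets, against -0.05 and -0.07 between times.

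In a limma fit of the 12 control arrays, labelled 24 against 12 hours called 0 of 10345 genes (0%) at an adjusted p under 0.05, and 600 had an unadjusted p under 0.05. The set was not in this fit, so the set difference adds to its spread and is partly confounded with labelled time. With the set added as a block, labelled time called 0 genes as well. Without the set in the fit, the smallest adjusted p was 0.0933, for BORCS6, a subunit of a lysosome-positioning complex, at -0.53 ± 0.08 (SE), a gene picked after its value was seen. In the 12 siOGT and ST045849 arrays, with the set in the fit, labelled time again called 0 genes (0%; 486 at an unadjusted p under 0.05). In that fit the set called 7 genes (0.0677%), all lower in the first set: MT1F, MT2A, MT1X, ACTA2, VWF (von Willebrand factor), CAMK2N1 (an inhibitor of CaM kinase II) and HES4 (a transcriptional repressor). With the replicate number added to the fit, the set called 0 genes. Both fits give siOGT and ST045849 cells a shared set difference. Where set differences have opposite directions in these treatments, as for the mitotic genes below, they cancel and add to the spread. Such genes are missing from the counts of 7 and 0, and the wider spread also bears on labelled time. A fit with a separate mean for each treatment and set called 42 genes in the average.

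**Figure D2:**
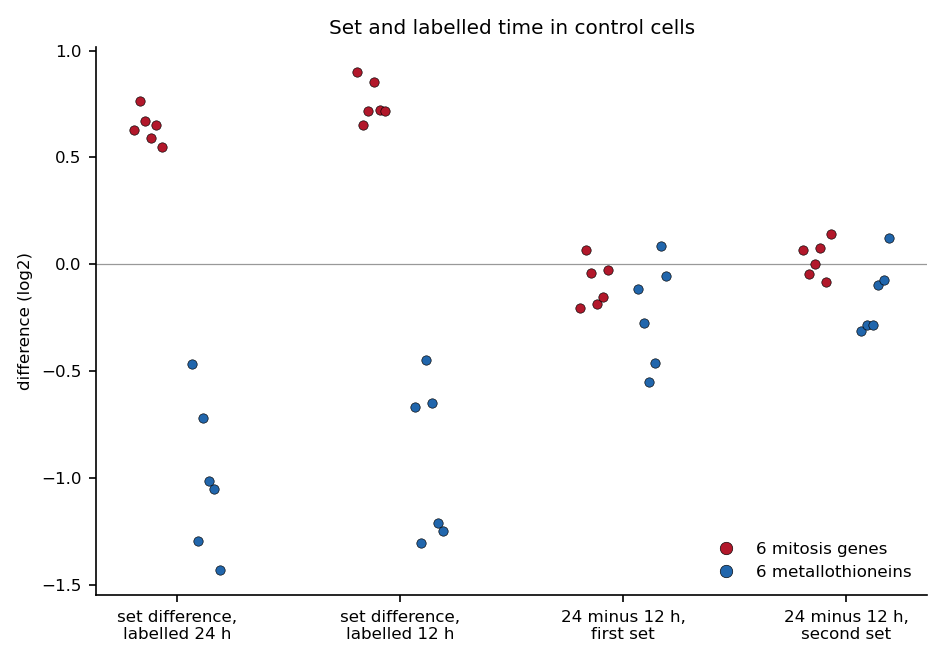
Differences in control cells (y axis, log2) of 6 mitosis genes (CCNB1, CENPA, HMMR, CENPF, KIF23 and KIF20A) and 6 metallothioneins, each point a gene, for first minus second set at each labelled time and for 24 minus 12 hours within each set. Set differences of the metallothioneins lie between -1.43 and -0.45 at both times, and their time differences lie between -0.55 and 0.12.

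Among siOGT arrays, metallothioneins were again lower in the first set. The gap that split the sets was that of the Vehicle arrays, and in siOGT cells 27 of 10345 genes (0.261%) differed between first-set and second-set siOGT cells at an adjusted p under 0.05, 10 higher (0.0967%) and 17 lower (0.164%) in the first set (limma, 3 against 3 arrays). MT1F fell to 8.15, 7.67 and 7.93 in first-set siOGT cells, against 9.09, 9.58 and 9.02 in second-set siOGT cells, a difference of -1.31 ± 0.19 (SE, adjusted p = 0.0133). MT2A fell by 1.24 ± 0.17 (adjusted p = 0.0101) and MT1X fell by 1.0 ± 0.14 (adjusted p = 0.0101), and the values of MT1H, MT1G and MT1E were -0.90, -0.65 and -0.52 without passing the test. HMOX1 fell to 6.40, 6.03 and 6.03 in first-set siOGT cells, against 7.16, 6.92 and 7.24 in second-set siOGT cells (-0.95 ± 0.12, adjusted p = 0.00785). S100P (-0.77, adjusted p = 0.0475), ACTA2 (-0.68, adjusted p = 0.0391) and SQSTM1 (-0.55, adjusted p = 0.0416) fell as well.

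All 46 mitotic genes had positive differences in siOGT cells, with a median of 0.45 against -0.01 over all genes. Of the 46, PLK1 (0.88 ± 0.14, adjusted p = 0.0240) and ANLN (0.65 ± 0.11, adjusted p = 0.0391), the cytokinesis protein anillin, rose past the test. CCNB1 (0.76, adjusted p = 0.0967), CENPA (0.57) and HMMR (0.52, adjusted p = 0.0626) did not pass. With median scaling 0 of the 46 passed in siOGT cells, and without background correction 26 did, all higher. GPSM2, a spindle orientation protein outside the list (0.70 ± 0.10, adjusted p = 0.0136), and UGT2B15 (0.64 ± 0.11, adjusted p = 0.0409) rose. Of the 23 genes higher and apart in control cells at 1.5-fold, 23 had positive differences in siOGT cells and 1 passed the test. Of the 9 lower genes, 9 had negative differences and 6 passed. Of the genes called in siOGT cells, 5 of 10 higher (50%) and 10 of 17 lower (58.8%) were apart in the same direction in control cells. Over all genes 2.16% were apart and higher and 2.21% apart and lower. These called genes were 2.24% of the 223 and 4.37% of the 229, and no called gene was apart in the opposite direction. Across 10345 genes the siOGT and control differences had a Pearson correlation of 0.46, and those of Scrambled and Vehicle 0.35. The ST045849 difference correlated at -0.12 with the control one and at -0.06 with the siOGT one; genes are not independent replicates. The siOGT count was 2 when the 6 siOGT arrays were fitted alone, and 3 with the replicate number added to the fit. It was 7, 12, 14 and 16 without siOGT 12 hours replicate 2, 24 hours replicate 1, 24 hours replicate 2 and 24 hours replicate 3, and 16 and 17 without ST045849 12 hours replicate 2 and 24 hours replicate 1, which share in the spread.

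**Figure D3:**
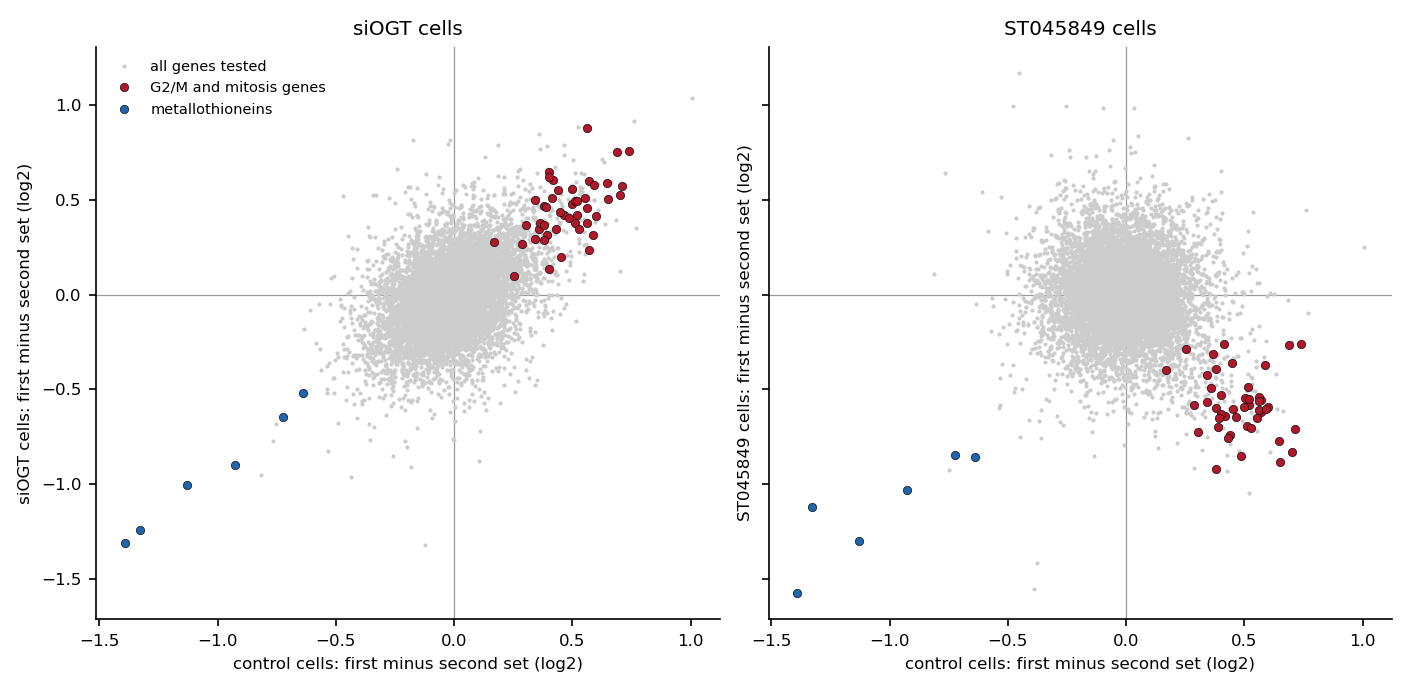
First minus second set (log2) in control cells (x axis) against the same difference in siOGT cells (left) and ST045849 cells (right), each point a gene tested. All 46 mitosis genes lie above 0 in siOGT cells and below 0 in ST045849 cells, and the 6 metallothioneins lie below 0 in both.

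In ST045849 cells 4 of 6 metallothioneins were again called lower in the first set, and so were 23 of 46 mitotic genes. Between first-set and second-set ST045849 cells 155 genes (1.5%) differed, 38 higher (0.367%) and 117 lower (1.13%). Of the 38 higher, 1 was apart in the same direction (2.63%) and 4 in the opposite direction in control cells. Of the 117 lower, 9 were apart in the same (7.69%) and 47 in the opposite direction. Over all genes 2.16% were apart and higher and 2.21% apart and lower. MT1F fell to 8.79, 8.67 and 8.64 in first-set ST045849 cells, against 9.88, 10.62 and 10.33 in second-set ST045849 cells (-1.57 ± 0.19, adjusted p = 0.00405). MT1X (-1.30, adjusted p = 0.00222), MT2A (-1.12, adjusted p = 0.00986) and MT1E (-0.86, adjusted p = 0.0393) fell too, and MT1G (-0.85, adjusted p = 0.0576) and MT1H (-1.03, adjusted p = 0.0684) did not pass. All 6 metallothioneins were called lower when siOGT and ST045849 were averaged, a fit that called 42 genes (0.406%), 10 higher (0.0967%) and 32 lower (0.309%). With each of the 12 arrays left out in turn, MT1F, MT2A and MT1X passed 12 times, and MT1H and MT1G 2 times each. The count of 42 was 11 without siOGT 24 hours replicate 1 or ST045849 24 hours replicate 3, 32 without siOGT 12 hours replicate 1, and 15 to 25 without each of the other arrays. It was 18 with median scaling, 148 without background correction and 0 with the replicate number added to the fit. None of the 6 passed in the test of the ST045849 set difference minus that in siOGT cells. The ST045849 count was 37 without ST045849 24 hours replicate 3, 52 without 12 hours replicate 1, 69 without 12 hours replicate 2, 74 without 24 hours replicate 1, and 31 when the 6 ST045849 arrays were fitted alone. With the replicate number added to the fit, the ST045849 count was 6.

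The 46 mitotic genes all had negative differences in ST045849 cells, 23 of them called lower, with a median of -0.59 against 0.01 over all genes. HMMR fell to 9.17, 9.11 and 8.79 in first-set ST045849 cells, against 9.85, 9.78 and 9.93 in second-set ST045849 cells (-0.83 ± 0.11, adjusted p = 0.00405). CENPA (-0.71), KIF23 (-0.88) and KIF20A (-0.77) fell past the test, and CCNB1 (-0.26, adjusted p = 0.618) did not pass. With median scaling 12 of the 46 were called lower, and without background correction 34. The mean over the 46 genes was 7.86 to 8.13 in first-set and 8.47 to 8.66 in second-set ST045849 cells. First-set ST045849 cells thus had the lowest mitotic levels of the 8 combinations of treatment and set. Of 43 G1/S genes, 12 fell in the first set of ST045849 cells and none rose.

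**Figure D4:**
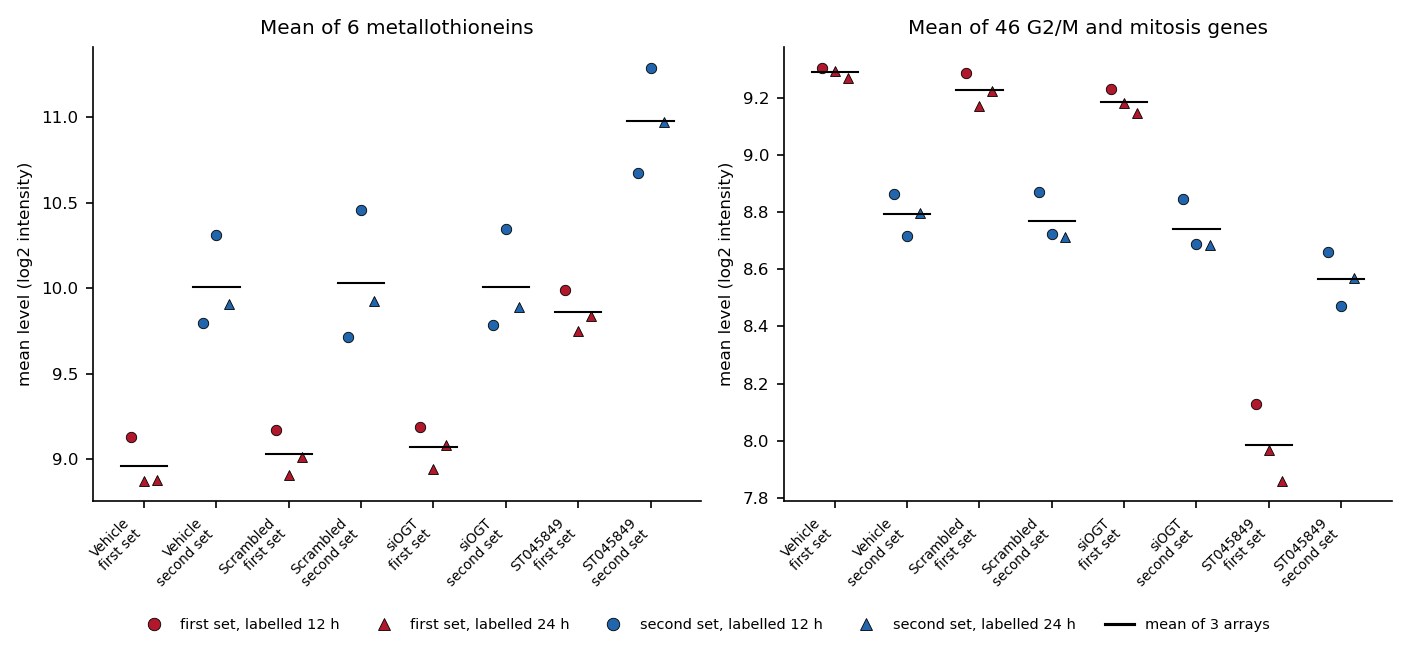
Mean level (y axis, log2 intensity) of 6 metallothioneins (left) and 46 G2/M and mitosis genes (right) on all 24 arrays, by treatment and set; bars are means of 3 arrays. The metallothionein mean is lower in the first set of every treatment, and the mitosis mean is higher in the first set of Vehicle, Scrambled and siOGT cells and lower in that of ST045849 cells.

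The difference between these set differences was tested directly. The set difference with ST045849 minus that with siOGT passed for 185 genes (1.79%), 45 higher (0.435%) and 140 lower (1.35%), and 36 of the 46 mitotic genes were among the lower. It was -1.35 in HMMR (adjusted p = 0.00258) and -1.36 in KIF20A (adjusted p = 0.00482). HMOX1 (adjusted p = 0.0098) and S100P (adjusted p = 0.00423) passed in the other direction. S100P had 11.04, 11.29 and 11.47 in first-set ST045849 cells, against 10.69, 10.57 and 10.62 in second-set ST045849 cells, a rise of 0.64. AKR1C2 and AKR1C4, aldo-keto reductases of steroid metabolism with near-identical relatives, rose by 0.99 and 1.17 in first-set ST045849 cells, against values of -0.85 and -0.49 in siOGT cells that did not pass. RNLS, a flavoprotein oxidase (-1.42, adjusted p = 0.000301), and TM4SF1, a membrane protein (-1.55, adjusted p = 0.000748), fell in first-set ST045849 cells, and 1 of 2 other RNLS probes differed by 0.20. The count of 185 was 108 without siOGT 12 hours replicate 2 or without ST045849 24 hours replicate 3, and 121, 115 and 112 without siOGT 24 hours replicate 1, 24 hours replicate 2 and 12 hours replicate 3. With median scaling 20 of the 46 mitotic genes were called lower.

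The targeted gene also differed between sets where it was silenced. OGT stood at 6.71, 6.76 and 6.6 in first-set siOGT cells, against 7.32, 7.55 and 7.82 in second-set siOGT cells (-0.88 ± 0.12, adjusted p = 0.00967). Relative to Scrambled cells of the same set, which had 9.01 ± 0.07 and 8.77 ± 0.17 (SD, n = 3), 19.9% of OGT intensity was left in the first set and 43.3% in the second set. OGA, the enzyme that removes O-GlcNAc, fell to 8.35, 8.44 and 8.56 in first-set siOGT cells, against 9.76, 9.72 and 9.83 in second-set siOGT cells (-1.32 ± 0.10, adjusted p = 0.000116). In control cells OGT differed by 0.11 and OGA by -0.12 between sets, and both overlapped. The set differences of OGT (adjusted p = 0.0104) and OGA (adjusted p = 0.00258) were higher with ST045849 than with siOGT. KATNAL1, a microtubule-severing enzyme (0.85, adjusted p = 0.000835), and MAP2K4, a stress-activated kinase (-0.71, adjusted p = 0.00785), were called in siOGT cells and overlapped between the control sets.

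**Figure D5:**
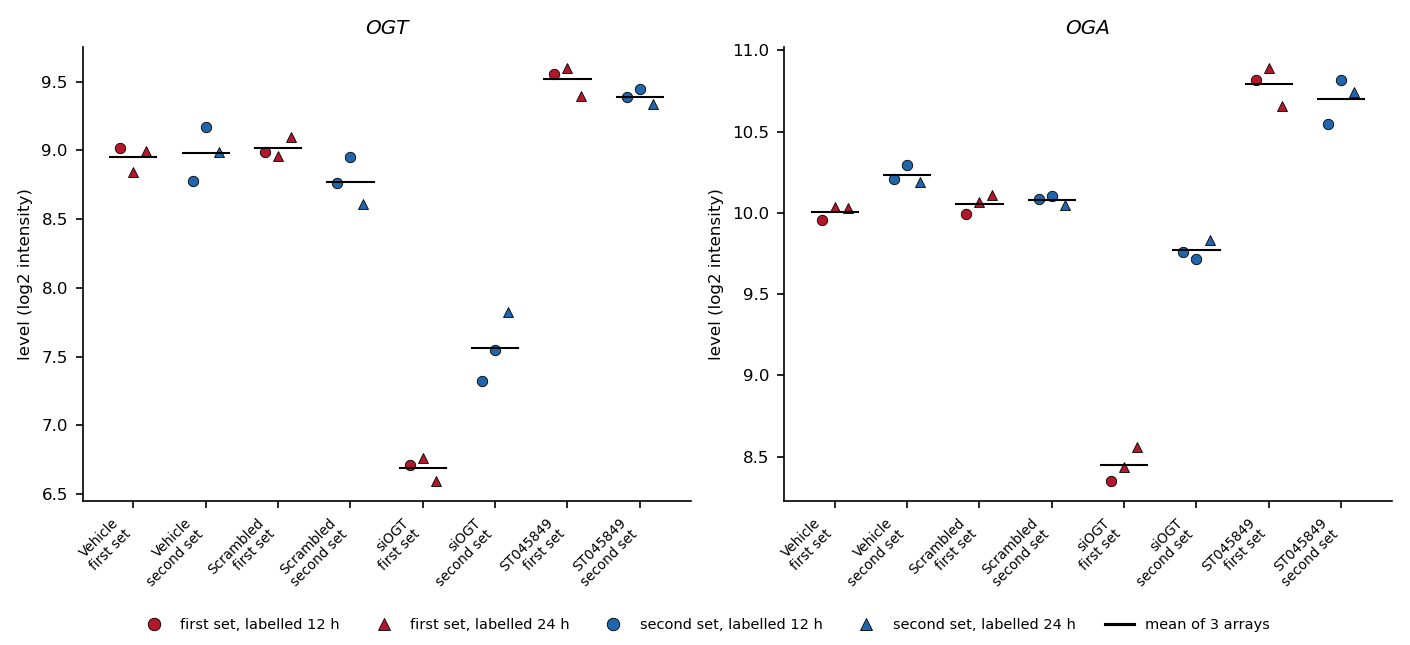
Level (y axis, log2 intensity) of OGT (left) and OGA (right) on all 24 arrays, by treatment and set; bars are means of 3 arrays. First-set siOGT arrays hold the lowest values of both genes, 6.6 to 6.76 for OGT and 8.35 to 8.56 for OGA, below second-set siOGT arrays at 7.32 to 7.82 and 9.72 to 9.83.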

How the data were processed

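Biotin-labelled RNA was measured on Illumina bead arrays, per the labels' protocols. The deposited raw table gave a linear probe intensity and a detection p-value per array, per the file headers. A further deposited table gave the authors' processed intensity, for which no method is given in the sources used here. Its counts equalled those of quantile normalisation without background correction for every result, so these settings are not separate checks. The submitters' processing notes name GenomeStudio 2011.1. Raw intensities were corrected with normexp from the detection p-values (offset 16, which draws differences of dim genes toward 0), quantile-normalised and taken to log2 by neqc (limma 3.58.1, R 4.3.3). A probe was kept if its detection p was under 0.01 on 3 or more arrays (17633 of 47323), and the brightest probe stood for each of 10345 genes, named from the platform annotation (30113 probes with 1 symbol, 8 with several, 17202 unnamed).

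The control difference is the mean of those within Vehicle and within Scrambled. Tests used lmFit and eBayes on the siOGT and ST045849 arrays with 4 means of treatment by set, and Benjamini-Hochberg adjustment over all genes. The fits of labelled time held treatment and time as separate terms. In siOGT and ST045849 cells they also held a shared set term, and in control cells no set term. Samples were grouped by title. The array sets, 33 gene lists and tests were chosen with earlier results of these data known. Genes were named by rank: 15 each way in control cells, 8 in the average and 5 in the difference between treatments, 4 per list, and 9 always, and other names were chosen after their values were seen. On simulated data 96 of 100 genes changed by 1 (log2) and 59 of 100 changed by 0.5 were recovered in the siOGT comparison over 10345 genes, with 10 false calls. RefSeq promoters were matched by symbol. P-values measure only the spread between these arrays.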

Additional observations from a re-analysis of the deposited data

Results flagged for a closer look

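Among 68 groups of 6 control arrays tested for a single array far from the others, 3 held one, where chance gives about 1 in 20. BRDT stood at 5.19 on Vehicle 12 hours replicate 2 in the second set, with the nearest array at 6.08. MT1F stood at 8.14 and MYC at 11.46 on Scrambled 12 hours replicate 3 in the first set, with the nearest arrays at 7.77 and 11.34.

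The set difference was larger or smaller with ST045849 than with siOGT, by the test of the difference itself (limma, adjusted p), in these genes. Higher with ST045849 were AKR1C2 by 1.84, AKR1C4 by 1.66, S100P by 1.41, OGA by 1.41 and COL16A1, a collagen chain, by 1.25, with adjusted p of 0.0033, 0.00535, 0.00423, 0.00258 and 0.00665. Lower with ST045849 were CDCA2 at -1.60, FAM83D at -1.55, PLK1 at -1.44, KIF23 at -1.38 and KIF20A at -1.36, all genes of mitosis, with adjusted p of 0.00258, 0.00258, 0.00423, 0.00423 and 0.00482.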

How the results depend on the processing

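The control count of 32 genes was 9 without background correction and 9 with the authors' processed values (2 higher, 7 lower in each, against 23 and 9), 17 with median scaling, 87 in Vehicle arrays alone and 63 in Scrambled arrays alone, and 452 with no minimum fold, a setting added after seeing the data. With median scaling 19 genes were apart and higher and 120 apart and lower. Of genes apart, 13.7% were then higher in the first set, against 49.3%, and metallothioneins and mitotic genes apart numbered 3 and 4. Without background correction, and equally with the processed values, 182 genes were called in siOGT cells, 318 in ST045849 cells, 148 in their average, 304 in ST045849 minus siOGT and 36 for the set with labelled time. Median scaling gave 53 in ST045849 cells, 18 in the average and 51 in ST045849 minus siOGT. Probes detected on all arrays of the comparison gave 120 in siOGT cells and 20 for the set with labelled time, no filter gave 17 in siOGT cells and 22 in the average, and array weights gave 51 in siOGT cells and 27 for the set with labelled time. The 6 siOGT arrays alone gave 2 and the 6 ST045849 arrays alone gave 31. Fewer samples or arrays enter those 2 fits. With no minimum fold, 223 genes were apart and higher and 229 apart and lower, both without background correction and with the processed values. The main setting gave the same numbers, and the counts of 9 and 32 differ only at the 1.5-fold minimum. Background correction keeps the order of probes within an array, and quantile normalisation uses only that order. Equal numbers apart with and without background correction were therefore fixed in advance and are no check. In Vehicle arrays alone or Scrambled arrays alone, overlap was checked in that treatment only, so 87 and 63 follow another rule than 32. The cause of the other changes was not tested.

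Replicate numbers were not taken as pairing the arrays, since not every same-numbered pair correlated above 0.1 in its deviations from the group mean. Each group, a treatment at 1 labelled time, holds arrays of both sets, so this check cannot tell pairing from the set. It does not decide whether the numbers pair the arrays. Of 12 pairs at 24 and 12 hours within a treatment 7 did (-0.06 to 0.18), of 6 pairs of Scrambled and Vehicle at one time 3 did (0.03 to 0.24), and 13 of 24 arrays correlated best with their own number. A replicate block gave 185 genes in control cells, 3 in siOGT cells, 6 in ST045849 cells, 0 in the average and 0 for the set with labelled time, so that no metallothionein was called in the average (MT1F, -1.31, adjusted p = 0.168), and 1 for labelled time in control cells (MT1G, -0.61, adjusted p = 0.00987). The 185 and the main count of 32 in control cells follow unlike rules. With the block, overlap was checked only between arrays of replicate 1, 1 from each set in each treatment. Set and number are partly confounded, since the first set holds both replicates numbered 3.

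Leaving out 1 array gave 29 to 43 genes in control cells, 7 to 32 in siOGT cells, 37 to 155 in ST045849 cells, 11 to 32 in the average, 108 to 176 in ST045849 minus siOGT, 5 to 9 for the set with labelled time, 0 for labelled time, 6 to 6 metallothioneins and 31 to 38 mitotic genes apart. With no minimum fold, leaving out an array can only keep or add genes that are apart. The lowest counts of 6 metallothioneins and 31 mitotic genes were therefore fixed in advance by the rule. Over all alternatives no named gene reversed. In control cells 551 values of named genes stayed within the spread and 44 moved. Calls of named genes held 113 times and were lost 67 times in siOGT cells, held 186 and were lost 116 times in the average, and held 188 times with 0 lost in ST045849 minus siOGT. Signal over background limits dim genes such as BRDT and ESPL1.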
